A study of Mus musculus with 93 samples.

Results

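Potassium, sodium and HCN channel genes code for the membrane proteins that set how readily a neuron fires. The genes described here code for the pore subunits of potassium channels (families Kcna, Kcnb, Kcnc, Kcnd, Kcnh, Kcnj, Kcnk, Kcnma, Kcnn, Kcnq and Kcnt), of the HCN channels and of the voltage-gated sodium channels, with the sodium channel beta subunits. They were chosen by family name, as protein-coding genes with at least 10 counts in at least 10% of the 93 mice. Of 80 candidates, 75 reached that count, out of 23702 genes tested in all. Kcna7, Kcnj1, Kcnk16, Kcnk18 and Scn4a did not reach it, and the highest count of any of them in any mouse was 16, for Scn4a. The rule set aside 4 further genes, Kcnj8, Kcnj10, Kcnj13 and Scn4b. A gene that is read in 1 strain only can still pass such a filter, so the counts below describe the 75 genes that passed and are not evidence about all 80.

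RNA was sequenced from the left brain hemisphere of 93 mice of 4 inbred strains, the laboratory strain B6 and the wild-derived strains CAST, PWK and WSB, all 8 months old. Each strain was studied as wild type (WT) and as APP/PS1, which carries transgenes for a mutant APP, chimeric of mouse and human, and for mutant human presenilin 1 that make neurons produce amyloid, driven by the prion protein promoter and present in addition to the mouse's own genes; the WT mice were littermates without it. Groups of strain and genotype held 12 mice, 6 of each sex, except B6 APP/PS1 with 10 (4 females) and PWK WT with 11 (5 females). Reads counted on genes ran from 53969802 to 106016200 per mouse, with a median of 66559575. Levels are given as CPM, counts scaled to a common library size with edgeR's TMM factors, and as CPM per kb of exon wherever genes are set beside each other.

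Sodium channels open when the membrane is depolarised and carry the upstroke of the action potential, and their beta subunits tune and anchor the pore-forming alpha subunits. Voltage-gated potassium channels end each action potential and space out the next, while inward rectifiers, 2-pore leak channels and HCN channels act near rest, where they set the resting potential and the response to small inputs. Calcium-activated and sodium-activated potassium channels couple firing to the ions that firing lets in. In hemisphere tissue, fewer cells of a type and less RNA per cell cannot be told apart for any of these genes.

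A pair of libraries stood apart from all others, B6 WT male 5 and B6 APP/PS1 female 2. Over the 15359 genes with a mean over 1 CPM, their mean squared deviation from their group was 0.120 and 0.0938, against 0.0486 for the next library and a median of 0.0296. The channel genes took part: over the 66 of the 75 with a mean over 1 CPM, the deviation was 0.172 and 0.138 against a median of 0.0193. In both libraries, 28 of the 75 lay below all 20 other B6 mice (13.9% of all genes did), and 5 lay above them (14.8% of all genes), among them Hcn2, Kcnh3, Kcnk2 and Kcnk3. Kcnma1 stood at 60.3 and 66.1 CPM, where the lowest other B6 mouse had 118. The 28 low genes had long transcripts, with a median exon length of 10.0 kb against 4.46 kb for the other 47. Among all genes over 10 CPM, those low in both libraries had a median of 8.53 kb, those high in both 3.18 kb, and all of them 5.12 kb. The lowest B6 value of a long gene below is often 1 of these mice.

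Levels of the 75 genes spread over a wide range. Their median level was 6.06 CPM per kb, against 1.78 for all genes tested, from 0.0223 (Kcna10) to 169. Of the 75, 54 had a mean over 10 CPM (43.7% of all genes did), 24 were over 100 CPM and 9 were under 1 CPM. The 10 highest held 51.9% of the summed level. Among the genes that led their families, Kcna2 was at 47.6 CPM per kb and Kcnj4 at 36.7. At the other end stood genes best known from peripheral sensory neurons and from epithelia, Scn10a at 0.0710, Scn11a at 0.0872 and Kcnj15 at 0.0984 CPM per kb. The 75 genes varied less between mice of a group than the average gene, with a median SD of 0.14 on the log2 scale against 0.20, but above 10 CPM they varied more, 0.12 against 0.10.

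**Figure D1:**
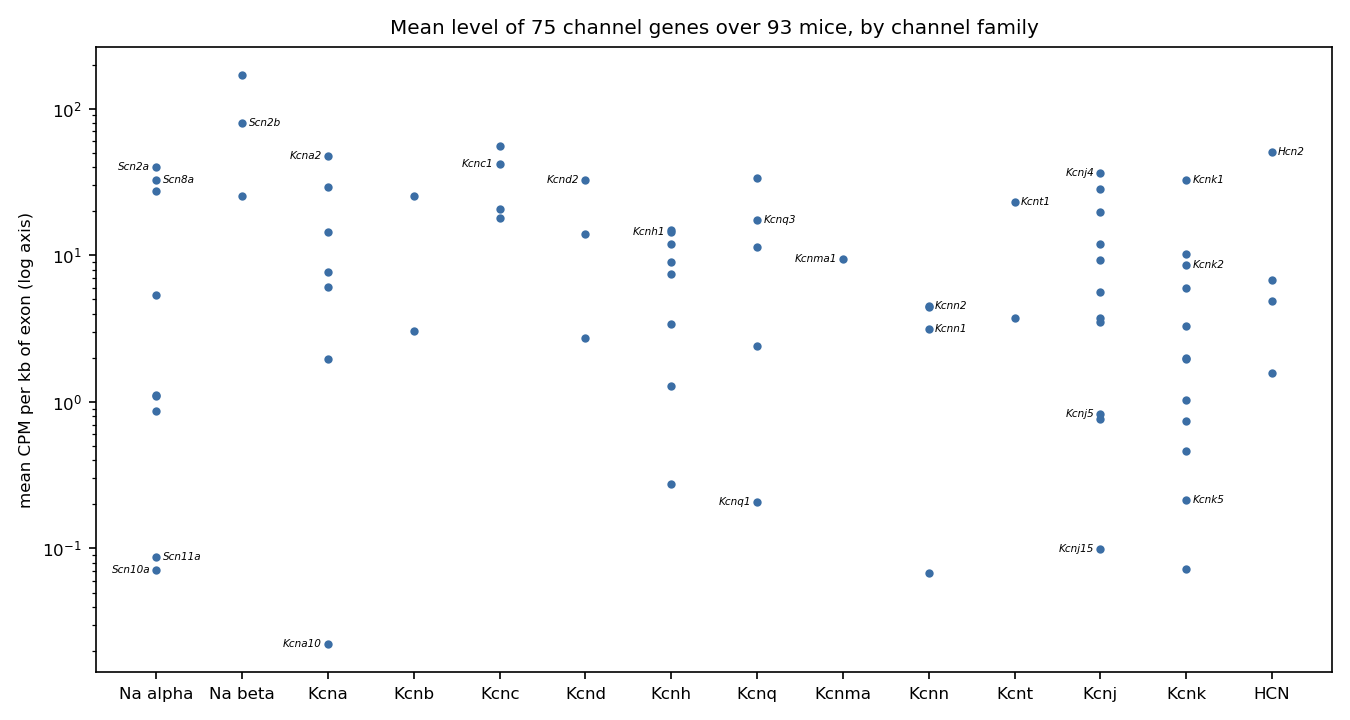
Mean level of each of the 75 channel genes over 93 mice in CPM per kb of exon (log axis), by family; each point is 1 gene. Levels ran from 0.0223 to 169, and every family with more than 4 genes reached down to or below 2 CPM per kb.

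Which channel genes differ between the 3 wild-derived strains was asked first, in WT mice. These strains were mixed within 3 library runs. The runs were inferred from library identifiers and index sequences in the deposited names, since the labels state none. Each difference can also be split by these inferred runs, which divides the same mice. The F test asks whether a gene differs anywhere among CAST, WSB and PWK, and each pair is then tested by itself. A gene is called when edgeR's adjusted p is under 0.05.

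The F test called 51 of 75 channel genes, against 74.1% of all genes. CAST and PWK differed in 48 of 75 (54.8% of all genes), 27 higher in CAST (27.8%) and 21 lower (27.1%). WSB and PWK differed in 33 (54.5%), 14 higher in WSB (27.5%) and 19 lower (27.0%). CAST and WSB also differed in 33 (54.2%), 21 higher in CAST (27.1%) and 12 lower (27.2%). The median absolute log2 difference was 0.18, 0.11 and 0.13 in these pairs, against 0.24, 0.24 and 0.23 for all genes. Among genes over 10 CPM, 34 of 54 channel genes passed the F test, against 77.0% of all such genes, and the median range between the strains was 0.18 on the log2 scale for both. Within runs, the sign was the same in all 3 for 47 of the 48 (all but Kcnj9), 31 of the 33 between WSB and PWK (all but Hcn4 and Kcnk12) and 31 of the 33 between CAST and WSB (all but Hcn4 and Kcna10). The runs divide the mice that gave the calls, so a shared sign is largely built in and is not a repeat. The share over all called genes was not counted. Kcnj9, Hcn4 and Kcnk12 fall outside the rule by which genes are named here and were chosen after their values were seen, as were Hcn3, Kcna3, Kcna6, Kcnc2, Kcnh4, Kcnh6, Kcnj6, Kcnk4, Kcnn3, Kcnt2, Scn2b, Scn3a, Scn3b and Scn9a below.

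Only a few of these differences separated the mice completely. No WT mouse of CAST overlapped a WT mouse of PWK for 8 genes (14.3% of all genes), Kcnj15, Kcnj5, Kcnk10, Kcnk2, Kcnk3, Kcnt1, Scn10a and Scn7a. WSB and PWK were apart for 5 (15.0%), Kcnj15, Kcnk3, Kcnq1, Scn10a and Scn11a. CAST and WSB were apart for 8 (14.4%), among them Kcnc2, Kcnj15, Kcnj5, Kcnk2, Kcnn1, Kcnn2 and Scn7a. Kcnj15 is in each of these groups.

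B6 was compared with each wild-derived strain next, again in WT mice. B6 libraries fell in 3 inferred runs of their own, so here strain and run cannot be told apart. CAST and B6 differed in 40 of 75 (61.4% of all genes), 29 higher in CAST (30.3%) and 11 lower (31.1%). WSB and B6 differed in 28 (47.5%), 17 higher in WSB (23.2%) and 11 lower (24.3%). PWK and B6 differed in 44 (59.2%), 30 higher in PWK (28.8%) and 14 lower (30.4%). Mice did not overlap for 9 genes between CAST and B6 (15.3%), 6 between WSB and B6 (8.24%) and 9 between PWK and B6 (15.3%). Called in all 3 pairs were 14 genes (25.7% of all genes), of which 9 were lower in B6 (9.35% of all genes; among them Kcna3, Kcnh1, Kcnj16, Kcnj6, Kcnn2, Kcnn3, Scn3b and Scn9a) and 4 higher (10.5% of all genes; Kcna10, Kcnj11, Kcnk1 and Kcnk2), while 1 took either sign (5.82%). Without the pair of B6 libraries that stood apart, 13 of the 14 were still called in all 3 pairs and Kcna3 was not.

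**Figure D2:**
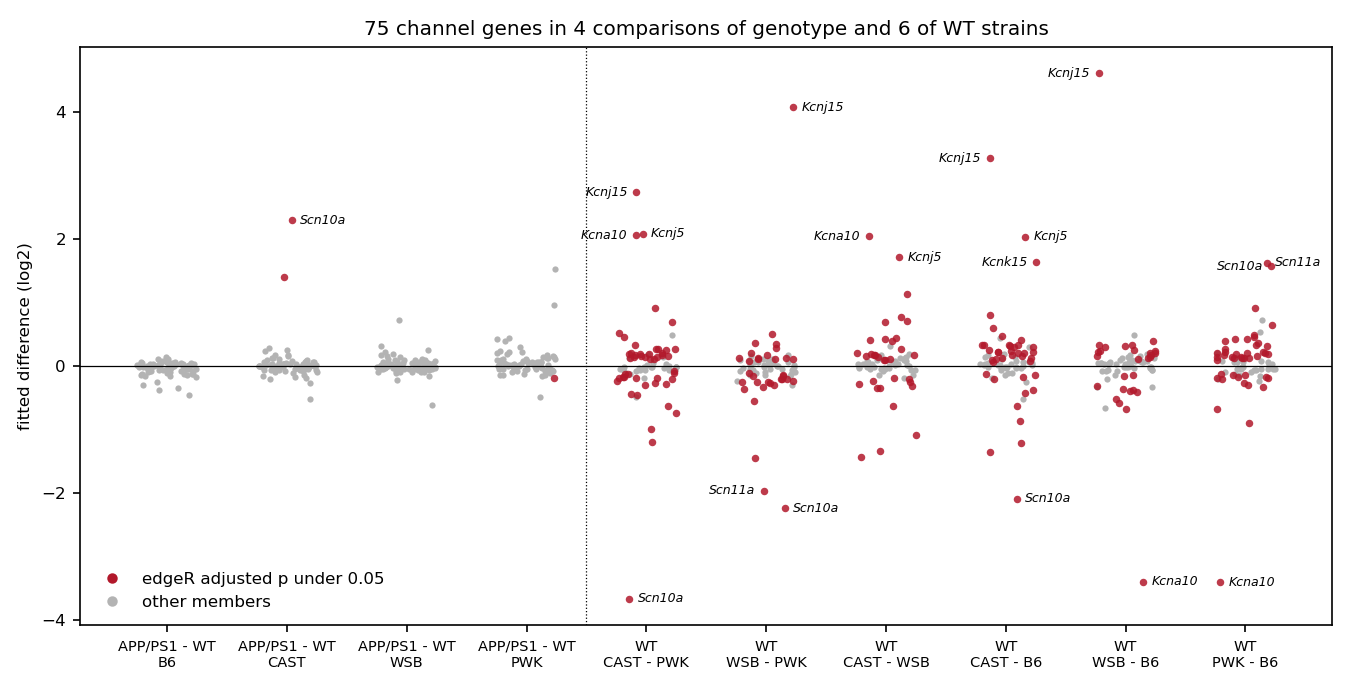
Log2 difference of each of the 75 channel genes in 10 comparisons, 4 of genotype (APP/PS1 minus WT within a strain) and 6 between strains in WT mice; each point is 1 gene and red marks edgeR adjusted p under 0.05. Genotype columns hold 3 red points, and strain columns hold 28 to 48.

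Among sodium channel alpha subunits of central neurons, the largest fitted log2 difference between WT strains was 0.19 for Scn2a, 0.15 for Scn1a and 0.12 for Scn8a. Scn2a and Scn8a code for the main channels of excitatory neurons and of the axon's initial segment, and Scn1a for the channel of fast-spiking interneurons. In WT mice Scn8a had its lowest, median and highest CPM at 388, 491 and 560 in B6, 471, 507 and 556 in CAST, 485, 530 and 588 in PWK, and 496, 535 and 569 in WSB. The 4 groups overlapped throughout. The F test did not call Scn1a, Scn2a or Scn8a, nor Scn3a and Scn9a. Among the wild-derived pairs, Scn1a was called between CAST and PWK and Scn2a between WSB and PWK, and both of these calls ended in some alternatives. Against B6, Scn8a was called in WSB (log2 difference 0.12, edgeR adjusted p 8.1e-04) and in PWK (0.12, adjusted p 8.6e-04). Scn2a was called in PWK (0.19, adjusted p 1.4e-04) and in CAST (0.13, adjusted p 0.0093). Scn1a was called in PWK (0.15, adjusted p 0.0069). PWK was higher than B6 in 6 of the 9 alpha subunits (28.8% of all genes) and lower in none (30.4%). CAST was lower than PWK in 5 of 9 (27.1%) and higher in none (27.8%).

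Scn10a (ENSMUSG00000034533, GRCm38 chromosome 9, 119608456 to 119719322) codes for a channel of pain-sensing neurons. Its lowest, median and highest CPM in WT mice were 0.813, 1.25 and 1.94 in PWK, 0.208, 0.310 and 0.792 in B6, 0.167, 0.239 and 0.400 in WSB, and 0.0253, 0.0661 and 0.194 in CAST. PWK stood above every mouse of the other strains, and CAST lay at the bottom, overlapping WSB only. On the log2 scale, CAST differed from PWK by -3.66 (edgeR adjusted p 5.5e-14) and WSB from PWK by -2.24 (adjusted p 3.1e-08). Its neighbour Scn11a, also a sensory-neuron channel, had 0.610, 0.852 and 1.40 CPM in PWK, against 0.0454, 0.212 and 0.482 in WSB. Again PWK was the high strain, and no PWK mouse overlapped a WSB mouse (log2 difference -1.97, adjusted p 8.7e-08). Within the 3 runs, mean Scn11a was 1.11, 0.811 and 0.946 CPM in PWK and 0.226, 0.298 and 0.202 in WSB.

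Scn7a codes for a sodium channel that senses extracellular sodium rather than voltage. It had 3.16, 4.51 and 5.22 CPM in CAST, 5.39, 6.42 and 8.89 in PWK, 5.52, 6.69 and 8.13 in WSB, and 3.61, 5.93 and 7.89 in B6. All 12 CAST mice were below every PWK and WSB mouse. Log2 differences of CAST were -0.63 from PWK (adjusted p 4.3e-07) and -0.62 from WSB (adjusted p 3.7e-07). Run means were 3.88, 4.61 and 4.40 CPM in CAST against 6.72, 7.00 and 6.58 in PWK.

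Among the beta subunits, Scn2b and Scn3b were highest in CAST, with medians of 401 and 158 CPM. All 12 CAST mice were above every B6 mouse for Scn3b (log2 difference 0.41, adjusted p 6.9e-18).

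Of the Kcna family of voltage-gated potassium channels, 1 of 7 members passed the F test (74.1% of all genes). Of the same 7, 3 differed between CAST and B6 (61.4%), 3 between WSB and B6 (47.5%) and 4 between PWK and B6 (59.2%). Kcna10, the member that passed the F test, is near 0 in all strains: its WT median was 0.110 CPM in B6, 0.0201 in CAST and 0 in PWK and WSB. Kcna2 ran 411, 558 and 600 CPM in B6, 493, 566 and 659 in CAST, 530, 586 and 640 in PWK, and 546, 578 and 602 in WSB. Kcna1 ran 80.7, 154 and 166 CPM in B6 and had medians of 141, 143 and 129 in CAST, PWK and WSB. All strains overlapped for both genes, and none of the 3 wild-derived pairs was called for either. Among the calls against B6, that of Kcna2 in PWK ended without the pair of B6 libraries that stood apart and without PWK WT female 2 and was not repeated in APP/PS1 mice, and that of Kcna1 in WSB ended in 6 of the alternatives. The Kcna sum per kb was 106 in B6, 107 in CAST, 108 in PWK and 105 in WSB.

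The Kcnd family carries transient potassium currents of cell bodies and dendrites. Kcnd2, the A-type channel of dendrites, ran 166, 186 and 194 CPM in PWK against 146, 164 and 172 in CAST, 158, 167 and 174 in WSB, and 134, 169 and 183 in B6. All 12 CAST and all 12 WSB mice were below the PWK median. The log2 difference was -0.19 for CAST (adjusted p 1.0e-06) and -0.15 for WSB (adjusted p 1.1e-04).

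The Kcnc channels let interneurons fire fast. Kcnc1 (ENSMUSG00000058975) ran 413, 432 and 502 CPM in PWK, 338, 408 and 451 in CAST, 356, 378 and 416 in WSB, and 315, 389 and 419 in B6. PWK was the high strain, and all 12 WSB mice lay below its median. The log2 difference of WSB from PWK was -0.21 (adjusted p 1.8e-07). Run means were 461, 446 and 427 CPM in PWK against 380, 373 and 394 in WSB. Kcnc2 ran 101, 119 and 126 CPM in CAST and 127, 136 and 154 in WSB, with no overlap.

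In the Kcnh family, whose channels are slow and shape excitability near threshold, 5 of 8 passed the F test (74.1% of all genes) and none was called between CAST and WSB (54.2%). Kcnh1 ran 83.1, 94.5 and 102 CPM in B6, 106, 117 and 134 in CAST, 88.8, 106 and 118 in PWK, and 99.2, 111 and 127 in WSB. B6 was the low strain, and every CAST mouse was above every B6 mouse. On the log2 scale, CAST differed from B6 by 0.32 (adjusted p 6.7e-12). Kcnh3 was higher in CAST than in PWK by 0.18 on the log2 scale in WT mice (adjusted p 0.00409), and by 0.06 without a call in APP/PS1 mice.

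All 5 Kcnq genes passed the F test (74.1% of all genes). Kcnq3 codes for a subunit of the channel of the M-current, which damps repetitive firing. It ran 213, 275 and 309 CPM in CAST, 234, 253 and 291 in WSB, 217, 239 and 262 in PWK, and 167, 267 and 317 in B6, so the strains overlapped. CAST minus PWK on the log2 scale was 0.20 (adjusted p 0.00381), and in APP/PS1 mice it was 0.22 and again called. Kcnq1, an epithelial and heart channel, had its lowest, median and highest CPM at 0.780, 1.28 and 1.95 in PWK, 0.541, 0.765 and 1.29 in CAST, 0.450, 0.659 and 1.07 in B6, and 0.198, 0.453 and 0.765 in WSB. Every PWK mouse was above every WSB mouse. Compared with PWK, WSB had a log2 difference of -1.44 (adjusted p 6.1e-12). A noncoding gene on the opposite strand, Kcnq1ot1, covers 2.96% of its exon length and held 8337 counts per mouse on average against 59.4 for Kcnq1, and its part in this difference was not tested.

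Among the calcium-activated channels, Kcnma1 had the highest level. Within the Kcnn family, Kcnn3 was highest per kb in B6 and WSB, and Kcnn2 in CAST and PWK. Kcnn2 makes the small-conductance channel behind the after-hyperpolarisation. It ran 36.3, 41.5 and 46.5 CPM in CAST, 32.7, 36.0 and 41.1 in PWK, 26.1, 30.6 and 35.6 in WSB, and 25.2, 27.1 and 30.9 in B6. CAST was above every WSB and B6 mouse, and PWK above every B6 mouse. The log2 difference of CAST was 0.45 from WSB (adjusted p 5.1e-19) and 0.59 from B6 (adjusted p 6.9e-26). Run means were 38.4, 43.6 and 41.2 CPM in CAST and 30.1, 29.0 and 33.0 in WSB. Kcnn1, of the same family, was instead higher in WSB than in CAST, with 15.7, 17.1 and 18.4 CPM in WSB and 11.5, 13.3 and 15.6 in CAST and no overlap (log2 difference -0.34, adjusted p 1.1e-10).

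Kcnma1, the large-conductance channel, ran 162, 173 and 188 CPM in CAST, 133, 154 and 166 in PWK, 136, 166 and 181 in WSB, and 60.3, 145 and 170 in B6. The groups overlapped, and the F test did not call it. The log2 difference of CAST from B6 was 0.30 (adjusted p 3.6e-04), with B6 WT male 5 the lowest mouse of all.

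Kcnt1 (ENSMUSG00000058740, chromosome 2, 25863734 to 25918273), the sodium-activated channel that slows firing after bursts, ran 227, 257 and 276 CPM in CAST, 209, 229 and 250 in WSB, 193, 216 and 248 in B6, and 163, 178 and 210 in PWK. Every CAST mouse was above every PWK mouse, and WSB and PWK touched at 209 to 210. On the log2 scale, CAST differed from PWK by 0.52 (adjusted p 3.0e-22) and WSB from PWK by 0.36 (adjusted p 4.0e-14). Run means were 268, 250 and 253 CPM in CAST, 234, 219 and 222 in WSB, and 195, 172 and 177 in PWK. The order of these means was the same in each run. Its relative Kcnt2 was called in none of the 6 strain pairs, with WT medians from 24.3 to 26.5 CPM.

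**Figure D3:**
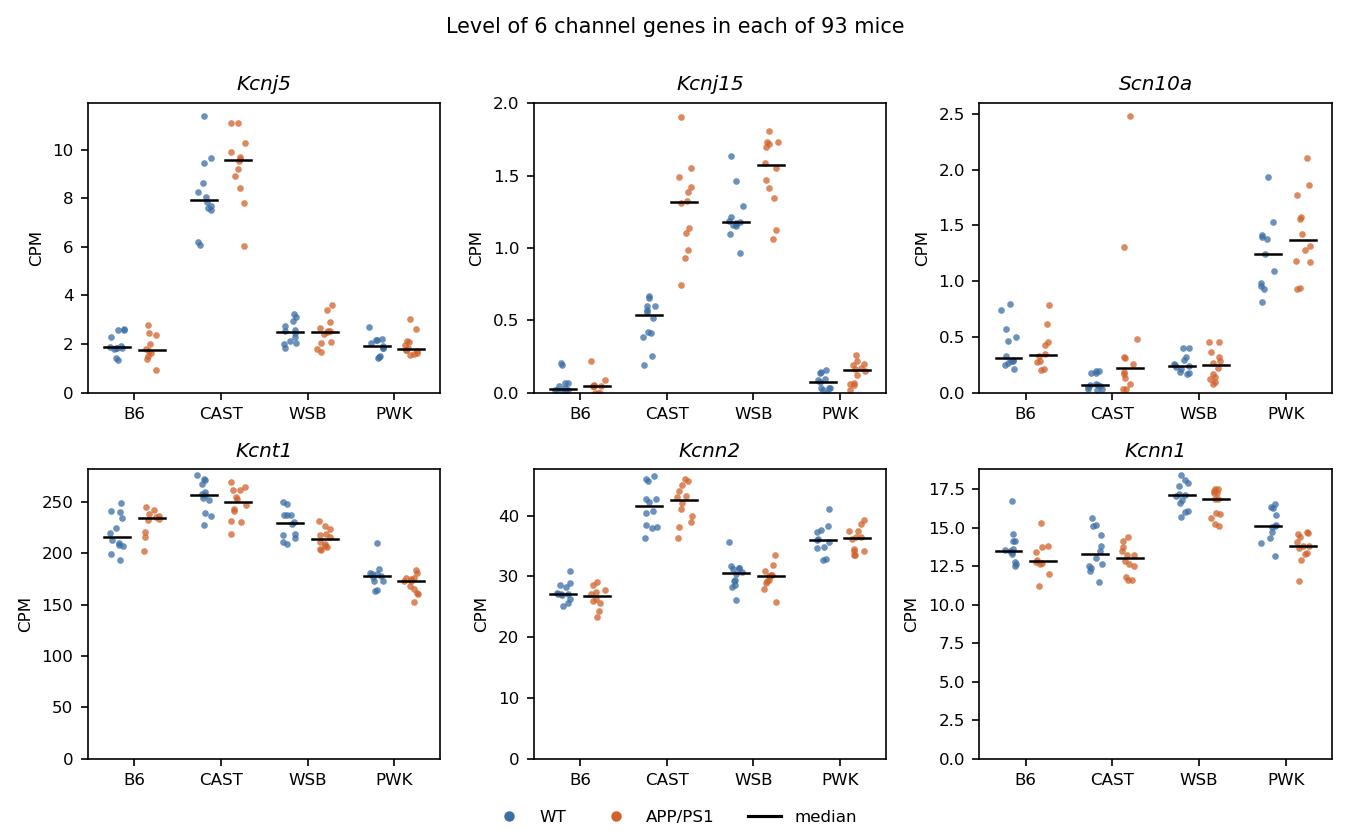
CPM of Kcnj5, Kcnj15, Scn10a, Kcnt1, Kcnn2 and Kcnn1 in each of the 93 mice by strain and genotype; each point is 1 mouse and each bar the group median. Kcnj5 was high in CAST alone of the 4 strains (WT median 7.94 CPM), and CAST APP/PS1 mice lay above CAST WT mice for Kcnj15 (medians 1.32 and 0.538 CPM).

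The inward rectifiers held the largest strain difference among genes with over 1 CPM. Kcnj5 (ENSMUSG00000032034, chromosome 9, 32314707 to 32344350) codes for a subunit of the channel that G proteins open. Its lowest, median and highest CPM in WT mice were 6.08, 7.94 and 11.4 in CAST, 1.85, 2.50 and 3.25 in WSB, 1.42, 1.93 and 2.68 in PWK, and 1.35, 1.86 and 2.61 in B6. Every CAST mouse was above every mouse of the other strains, which overlapped each other. Log2 differences of CAST were 2.08 from PWK (adjusted p 1.0e-26), 1.72 from WSB (adjusted p 6.2e-23) and 2.04 from B6 (adjusted p 3.8e-27). Run means were 8.36, 8.72 and 7.42 CPM in CAST against 1.84, 1.98 and 1.93 in PWK. Its partners in that channel, Kcnj3, Kcnj6 and Kcnj9, did not share the pattern: the log2 difference of CAST from PWK was 0.03, 0.05 and -0.08.

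Kcnj15 (ENSMUSG00000062609, chromosome 16, 95257558 to 95300260) codes for an inward rectifier of epithelia. In WT mice it ran 0.964, 1.18 and 1.64 CPM in WSB, 0.191, 0.538 and 0.670 in CAST, 0, 0.0734 and 0.159 in PWK, and 0.0102, 0.0260 and 0.205 in B6. The 3 wild-derived strains did not overlap each other, and only B6 and PWK, and B6 and CAST at their edges, did. WSB minus PWK on the log2 scale was 4.07 (adjusted p 2.5e-21), and CAST minus PWK was 2.74 (adjusted p 1.1e-12). CAST WT was below WSB WT by a log2 difference of -1.34 (adjusted p 9.4e-07), but in APP/PS1 mice that difference was -0.25 and not called.

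Kcnj11 codes for the pore of the ATP-sensitive channel that links metabolism to firing. It ran 16.8, 17.9 and 19.3 CPM in B6, 10.6, 12.0 and 13.4 in WSB, 10.1, 11.1 and 13.8 in PWK, and 8.08, 9.93 and 11.3 in CAST. Every B6 mouse was above every mouse of the other strains. Compared with B6, CAST had a log2 difference of -0.86 (adjusted p 2.6e-30), PWK had -0.67 and WSB had -0.58. Kcnj16, an inward rectifier of glia, had the opposite order, with 25.8, 35.0 and 38.5 CPM in B6 against 48.0, 59.6 and 70.3 in CAST, 49.3, 52.6 and 57.8 in PWK, and 37.7, 44.2 and 57.3 in WSB. B6 was the low strain and overlapped only WSB. The log2 difference of CAST from B6 was 0.81 (adjusted p 1.4e-24), and run means of CAST and WSB were 57.3, 60.5 and 59.7 CPM against 44.7, 42.6 and 47.5.

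The 2-pore channels carry the resting leak, and 10 of 12 passed the F test (74.1% of all genes). Kcnk2, opened by stretch and lipids, ran 47.9, 50.4 and 59.6 CPM in B6, 40.2, 44.8 and 51.9 in PWK, 37.5, 41.5 and 47.6 in WSB, and 29.2, 33.0 and 37.1 in CAST. Every CAST mouse was below every mouse of the other strains. The log2 difference of CAST was -0.44 from PWK (adjusted p 1.9e-18), -0.31 from WSB (adjusted p 5.8e-12) and -0.63 from B6 (adjusted p 7.5e-28). Run means were 35.2, 32.0 and 33.7 CPM in CAST, 42.0, 42.0 and 38.1 in WSB, and 43.4, 45.1 and 46.2 in PWK.

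Kcnk3, an acid-sensitive leak channel, was high in PWK, with 44.5, 48.5 and 56.4 CPM against 33.9, 39.0 and 43.9 in CAST, 35.8, 39.2 and 42.8 in WSB, and 34.5, 38.3 and 41.7 in B6. No PWK mouse overlapped another strain. On the log2 scale, CAST differed from PWK by -0.30 (adjusted p 2.3e-10) and WSB by -0.30 (adjusted p 4.5e-10). Kcnk10, related to Kcnk2, was also highest in PWK, at 9.77, 10.6 and 14.1 CPM against 6.01, 8.15 and 8.91 in CAST. Kcnk6 was lowest there, at 1.33, 2.02 and 2.62 CPM against 2.73, 3.65 and 4.97 in B6, with no overlap (log2 difference -0.89, adjusted p 1.3e-12).

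Kcnk1, the family's highest member per kb, set B6 apart: it ran 80.8, 89.3 and 97.2 CPM in B6, 60.4, 66.1 and 80.9 in CAST, 60.5, 70.2 and 77.7 in PWK, and 59.2, 68.9 and 77.4 in WSB. B6 mice were above every PWK and WSB mouse and touched CAST at 1 edge. WSB minus B6 on the log2 scale was -0.38 (adjusted p 4.5e-15) and PWK minus B6 was -0.33 (adjusted p 5.7e-12). The wild-derived strains were not called against each other. The 2-pore sum per kb was 74.8 in B6 and 63.6 to 68.7 in the other strains. Kcnk5, at 0.236, 0.388 and 0.823 CPM in CAST and 0.549, 0.985 and 1.21 in B6, was lower in CAST by a log2 difference of -1.22 (adjusted p 1.7e-08), below the B6 median in 12 of 12 mice.

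The HCN channels carry the depolarising current at rest. Hcn2 makes up 78.4% to 81.8% of the family's summed level per kb in WT mice. It ran 143, 174 and 213 CPM in CAST, 154, 170 and 207 in B6, 141, 160 and 180 in PWK, and 142, 153 and 182 in WSB, all overlapping. Compared with WSB, CAST had a log2 difference of 0.19 (adjusted p 0.0014) in WT mice and turned to -0.05 in APP/PS1 mice. Hcn3 was highest in WSB, at 20.2, 22.2 and 27.4 CPM, above every B6 mouse.

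How far the strain differences recur in other mice was asked with the APP/PS1 animals, which share no mouse with the WT comparison; that repeat was added after the data were seen. Of the 48 genes called between CAST and PWK in WT mice, 32 were called in the same direction in APP/PS1 mice (66.7%, against 84.1% for all genes). Between WSB and PWK it was 23 of 33 (69.7%, against 83.2%), and between CAST and WSB 21 of 33 (63.6%, against 83.6%). Against B6 it was 29 of 40 for CAST (72.5%, against 84.6%), 24 of 28 for WSB (85.7%, against 74.6%) and 36 of 44 for PWK (81.8%, against 82.0%). Called in both genotypes with opposite signs was 1 gene between CAST and B6 and 1, Scn10a, between CAST and WSB. The fitted difference of Scn10a reversed in CAST, where that from WSB became 0.97 (adjusted p 0.0143) and that from B6 0.45. CAST APP/PS1 male 6 (2.48 CPM) and female 3 (1.30 CPM) carry this, since the others reached 0.477 CPM and the median, 0.218 CPM, was below the 0.245 of WSB APP/PS1 and the 0.334 of B6 APP/PS1.

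How APP/PS1 mice differ from WT mice was asked within each strain. The paper bred the wild-derived APP/PS1 lines by backcrossing from B6 APP/PS1 mice. In those strains the contrast, called that of the transgene below, also covers any B6 DNA that stayed beside it. Each contrast averages the sexes. It was then averaged over strains, and the difference of the transgene's effect between strains and between sexes was tested directly.

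Few channel genes were called. In CAST 2 of 75 were called, Kcnj15 and Scn10a (0.658% of all genes), and in PWK 1 (2.04%). In B6 none was called by edgeR (0.224% of all genes) or DESeq2, with 3 at an unadjusted p under 0.05, and the smallest adjusted p was 0.687, for Scn3b. In WSB none was called by edgeR (0.375%) or DESeq2, with 8 at an unadjusted p under 0.05, and the smallest adjusted p was 0.253, for Kcnh4. Mice of the genotypes were fully apart for 1 gene in CAST, Kcnj15 (0.127% of all genes), and for none in B6 (0.0464%), WSB (0.0380%) and PWK (0.253%). The PWK count was 3 by DESeq2, which added Kcnj15 and Kcnn1, 3 in a fit on PWK alone, 2 without PWK WT female 4 and 4 without the pair of B6 libraries that stood apart. The intervals were narrow for most: the 95% interval reached a median of 0.12 in B6 and 0.11 in each other strain to either side of the estimate on the log2 scale, and the whole interval lay within 0.2 of no change for 50 of 75 genes in WSB, 49 in B6, 48 in CAST and 42 in PWK.

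Kcnj15 rose in CAST APP/PS1 mice. Its lowest, median and highest CPM were 0.742, 1.32 and 1.91 in CAST APP/PS1 and 0.191, 0.538 and 0.670 in CAST WT. All 12 APP/PS1 mice were above all 12 WT mice. The log2 difference was 1.40 (95% interval 0.93 to 1.87, edgeR adjusted p 3.4e-05). Within runs the ratio of the means was 2.22, 2.91 and 3.06, the second with 1 APP/PS1 mouse. In the other strains it ran 1.06, 1.57 and 1.81 CPM in WSB APP/PS1, 0.0159, 0.155 and 0.263 in PWK APP/PS1, and 0, 0.0470 and 0.217 in B6 APP/PS1. Those groups overlapped their WT mice, and the log2 differences were 0.31 in WSB, 0.96 in PWK and 0.08 in B6, none of them called by edgeR. Whether the effect differs between strains was not settled by the test of that difference: the adjusted p was 0.265 by edgeR and 0.0269 by DESeq2.

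Scn10a in CAST rests on few mice. CAST APP/PS1 mice had 0.0275, 0.218 and 2.48 CPM and CAST WT mice 0.0253, 0.0661 and 0.194. The groups overlapped, 10 of 12 APP/PS1 mice were above the WT median, and male 6 (2.48 CPM) and female 3 (1.30 CPM) lay far above the other APP/PS1 mice, which reached 0.477. The log2 difference was 2.30 (adjusted p 3.9e-05), but without these mice it was 1.00 (adjusted p 0.251), and in a fit on CAST alone the adjusted p was 0.0711. Scn10a is also the only gene of the 75 called for a difference between strains in the transgene's effect (adjusted p 0.00635; 0.473% of all genes were called). That call ended without male 6, without female 3 and without both, with adjusted p from 0.0769 to 0.514. In the other strains the log2 difference was -0.24 in B6, -0.10 in WSB and 0.20 in PWK, none called.

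Scn10a and Scn11a lie together on chromosome 9, 7.37 and 7.52 Mb from Arpp21. Of 328 genes tested within 10 Mb of Arpp21, the transgene contrast called 38 in PWK (11.6%), 16 in CAST (4.88%), 12 in WSB (3.66%) and 3 in B6 (0.915%). The wild-derived APP/PS1 lines were backcrossed from B6, so carriers may keep B6 DNA beside the transgene that WT littermates lack. The part of this position and of such DNA in the Scn10a result was not tested. Scn11a was not called in any strain, and its log2 difference in CAST was 0.24.

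Averaged over the strains, 2 of 75 genes were called (2.27% of all genes), Kcnj15 and Kcnn1. Kcnj15 was higher by 0.69 (adjusted p 0.0107), with 37 of 46 APP/PS1 mice above the WT median of their strain. Without B6 APP/PS1 female 3 or female 4 its adjusted p was 0.0528 and 0.129. Kcnn1 was lower, with a log2 difference of -0.08 (adjusted p 0.0304) and 34 of 46 APP/PS1 mice below the WT median of their strain. It ran 11.5, 13.8 and 14.7 CPM in PWK APP/PS1 and 13.2, 15.1 and 16.5 in PWK WT, the strain with the largest fitted fall. Without B6 APP/PS1 female 4 its adjusted p was 0.0586. The count of called genes was itself unsteady: it was 6 without B6 APP/PS1 female 2, 1 without female 3 and 0 without female 4.

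Next in order was Kcnk3, not called, with a log2 difference of -0.06 averaged over strains (adjusted p 0.0932). Hcn2 was lower in CAST APP/PS1, at 133, 156 and 189 CPM against 143, 174 and 213 in WT, with 10 of 12 mice below the WT median. Its log2 difference was -0.18 and the adjusted p 0.0984, and without the pair of B6 libraries that stood apart the adjusted p was 0.0478. Taken over the 75, the transgene contrast had a median of -0.01 in B6, 0.00 for CAST mice, 0.01 for WSB mice and 0.03 for PWK mice on the log2 scale. Over all genes the medians were -0.004, -0.003, 0 and -0.005. The contrast was above 0 for 33 of the 75 in B6 (47.7% of all genes), 39 in CAST (48.0%), 40 in WSB (49.9%) and 47 in PWK (47.9%).

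No channel gene was called for sex by edgeR (1.77% of all genes) or DESeq2, with 9 at an unadjusted p under 0.05 and the smallest adjusted p at 0.0979. None was called for a difference of the transgene's effect between the sexes by edgeR (0.00422%) or DESeq2, with 5 at an unadjusted p under 0.05 and the smallest adjusted p at 0.626, for Kcna1.

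Genes that work with these channels were read from 4 lists. Of 24 auxiliary potassium channel subunits 21 were tested, led by Kcnab2 (Kcne1, Kcne5 and Lrrc52 were too low). The F test among CAST, WSB and PWK, which called 74.1% of all genes, called 17 of these 21, 6 of 10 silent alpha subunits, which modify Kcnb channels, 6 of 9 partners of sodium and HCN channels, led by Nrcam, and 10 of 17 genes of the axon initial segment and node, led by Sptbn1. The summed level of the silent subunits, led by Kcnf1, was 286 CPM in B6 WT, 256 in WSB, 246 in PWK and 220 in CAST. None of these genes was called for genotype in any of the 4 strains by edgeR.

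Markers of cell types and regions were counted alongside. Of 9 neuron markers, led by Snap25, none was called for genotype in any strain, and group means of their sum ran from 7032 to 7514 CPM. Of 6 markers of excitatory neurons (Camk2a highest) 1 was called averaged over strains (2.27% of all genes), Neurod6, and of 7 of inhibitory neurons (Gad1 highest) none was called for genotype. Of 7 microglia markers, led by Csf1r, 3 were higher in APP/PS1 mice of B6 (0.224% of all genes were called), 3 of CAST (0.658%), 4 of WSB (0.375%) and 5 of PWK (2.04%). Their summed level rose from 211 to 248 CPM in CAST. It also rose in the other strains, and the rise was largest in PWK. Of 6 astrocyte markers 1, Gfap, was higher in each strain. The part of the microglia and astrocyte markers in the rise of Kcnj15 was not tested.

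For genotype, no marker of oligodendrocytes, their precursors (Pdgfra highest), mural cells, choroid plexus and ependyma (Ttr highest), cerebellum, striatum (Scn4b highest), thalamus (Rora highest), olfactory bulb (Cdhr1 highest) or hippocampus (Wfs1 highest) was called in any strain by edgeR. Of 5 endothelial markers (Flt1 highest) 1, Kdr, was called in WSB (0.375% of all genes). Of 7 hypothalamus and pituitary markers 2 (Gh and Prl) were called in B6 (0.224%) and 3 in WSB (0.375%), where the highest mouse summed to 531 and 646 CPM against group medians of 14.1 and 23.8. Of 9 immediate early genes 1, Npas4, was lower in PWK APP/PS1 (2.04% of all genes were called).

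Between strains, all 7 oligodendrocyte markers, led by Mbp, were higher in B6 WT than in each wild-derived strain (10.5% of all genes), with a sum of 6676 CPM in B6, 4490 in WSB, 4287 in PWK and 4125 in CAST. All 6 mural markers, led by Rgs5, were lower in CAST than in B6 (31.1%), at 124 CPM against 240, 239 in WSB and 218 in PWK. All 9 immediate early genes, led by Egr1, were lower in CAST than in each other strain (10.8%), at 448 CPM against 694 in B6, 692 in WSB and 792 in PWK. Of 4 thalamus markers 3 were higher in CAST (30.3%), WSB (23.2%) and PWK (28.8%) than in B6, and 1 was lower in WSB (24.3%). Of 6 cerebellum markers (Cbln3 highest) 4 were higher (28.8%) and 2 lower (30.4%) in PWK than in B6. The part of these lists in the levels of Kcnj11, Kcnk1, Kcnk2, Kcnj5 and other genes that followed the same strains was not tested.

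Reads on exons shared by genes are counted on neither, and whether strand was used in the counting is not stated. Such overlap was found for 22 of the 75 genes. Among the larger shares were 39.6% of the exon length in Kcna6, 31.1% in Kcnj3, 17.1% in Hcn3 and 12.2% in Kcnk2, all with a gene on the opposite strand, and 13.2% in Kcnk4 with a gene on the same strand. Kcnj15 shared 5.28% with a gene on the opposite strand. Reads that mapped to more than 1 place, which are not counted, were on average 9.89% in B6, 12.0% in CAST, 11.9% in PWK and 9.69% in WSB, and their part in the strain differences was not tested.

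Promoters were read because the rule did not use them. RefSeq (GRCm38.p6, the reference sequence and not that of CAST, PWK or WSB) held 67 promoters for 52 of the 75 genes, each taken as the 250 bases before the start of transcription. They were richer in G and C than others, with a median of 58.8% against 52.4% over 32851 promoters of 27025 genes, and 33 of 67 were over 60% GC (27.0% of all). The motif TATAAA, searched on both strands, was in 3 (12.4% of all promoters), CCAAT in 16 (33.9%) and GGGCGG in 31 (32.7%). TTCAGCACC, the opening bases of the element that silences neuronal genes outside neurons, was in 1, that of Kcnh6 (0.301% of all). These matches are descriptions of sequence and not binding sites. No entry was found for the other 23, among them Kcna1, Kcnj11, Kcnk3, Kcnn2, Kcnq1 and Kcnt1.

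Promoters are shown for Kcnj5, Kcnj15 and Scn10a, which differed between strains above, and for the high Kcnc1. Of these, Kcnj15 and Scn10a were also called for genotype in CAST. Each promoter is given 5′ to 3′ on the gene's strand with GGGCGG or its reverse complement in capitals. Kcnc1 lies at chr7:46396218-46396467 on the plus strand with 74.4% GC, Kcnj5 at chr9:32344345-32344594 on the minus strand with 58.0%, Kcnj15 at chr16:95257308-95257557 on the plus strand with 53.2%, and Scn10a at chr9:119719033-119719282 on the minus strand with 49.6%. Kcnj15 and Scn10a hold none of the motifs searched. The start of transcription in RefSeq differs from the gene's edge in GENCODE for Scn10a and Kcnj5, so the stretch of Scn10a lies inside the span given above and that of Kcnj5 overlaps its edge.
Kcnc1: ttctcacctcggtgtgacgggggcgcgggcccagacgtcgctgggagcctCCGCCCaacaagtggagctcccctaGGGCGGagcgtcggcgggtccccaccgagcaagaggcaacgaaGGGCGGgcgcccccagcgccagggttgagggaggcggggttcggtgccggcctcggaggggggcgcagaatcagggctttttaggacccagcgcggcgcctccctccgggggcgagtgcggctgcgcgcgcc
Kcnj5: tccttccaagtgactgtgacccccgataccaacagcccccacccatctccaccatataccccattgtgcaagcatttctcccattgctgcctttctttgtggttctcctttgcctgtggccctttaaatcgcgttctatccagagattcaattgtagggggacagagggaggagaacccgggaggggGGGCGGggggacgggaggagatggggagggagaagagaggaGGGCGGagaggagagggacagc
Kcnj15: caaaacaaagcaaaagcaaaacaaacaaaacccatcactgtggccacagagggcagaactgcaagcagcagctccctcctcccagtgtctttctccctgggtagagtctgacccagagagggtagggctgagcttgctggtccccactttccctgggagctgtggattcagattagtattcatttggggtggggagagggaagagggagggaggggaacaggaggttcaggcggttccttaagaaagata
Scn10a: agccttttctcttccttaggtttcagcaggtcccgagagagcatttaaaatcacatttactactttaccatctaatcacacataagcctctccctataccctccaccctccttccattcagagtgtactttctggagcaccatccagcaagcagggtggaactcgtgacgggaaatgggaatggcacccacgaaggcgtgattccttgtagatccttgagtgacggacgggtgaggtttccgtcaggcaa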

How the data were processed

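The deposited values are raw read counts per gene for each mouse: the authors trimmed the reads with Trimmomatic, aligned them with STAR to mm10 or, for CAST, PWK and WSB, to custom genomes, and counted them with HTSeq. Counts were used without change. Symbols, exon lengths and positions came from GENCODE M21 (GRCm38). Genes with at least 10 counts in at least 10% of 93 mice (23702 of 47643 shared by all mice) were fitted in edgeR 4.0.16 (R 4.3.3) with TMM scaling, 16 group means of strain, genotype and sex, and quasi-likelihood tests averaged over the sexes. Adjusted p-values are Benjamini-Hochberg over all 23702 genes. CPM used the TMM-scaled library sizes, and its precision follows from 53969802 or more counted reads per mouse. Library runs were inferred from the library identifiers and index sequences in the deposited names, which do not state runs. In order of identifier, a new run was started at the widest gap and wherever an index sequence repeated. The fit was tested on simulated data.

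Members and lists were chosen with earlier results of these data known. Named genes are 19 fixed ones, those past the threshold for genotype, sex or an interaction, the 3 with the smallest p averaged over strains, the 20 with the largest range and the 5 with the smallest p in the F test, the 5 with the largest difference in each pair with B6, the highest member per kb of each family, and those within 10 Mb of Arpp21 or at 78 to 92 Mb of chromosome 10. Some genes named by this rule are in the counts but not reported here. The alternatives were DESeq2 1.42.0, its size factors, no filter, run as a covariate, fits on fewer strains, a replicate block and leaving out single mice of the smallest groups. Leaving out the B6 or CAST mice that stood apart and repeating strain differences in APP/PS1 mice were chosen after the data were seen. Tables and figures used Python 3.11.15 with numpy 2.4.6, pandas 2.3.3 and matplotlib 3.10.9.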

Additional observations from a re-analysis of the deposited data

Results flagged for a closer look

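Single mice far from the other mice of their group of strain, genotype and sex, 4 to 6 mice each, were looked for in 12 genes. There were 20 such values, on 15 mice, in 192 pairs of a gene and a group. The nominal rate by chance is about 1 in 20 pairs. That rate need not hold for genes near 0 CPM such as Kcna10, so the count is not read as an excess. Kcna10, a potassium channel gene near 0, gave 6 of them, each the highest of its group: 0.282 CPM in B6 WT female 3, 0.212 in CAST APP/PS1 female 4, 0.151 in CAST WT female 5, 0.207 in CAST WT male 5, 0.0441 in PWK WT female 3 and 0.0769 in WSB WT female 2. Scn10a was the highest of its group at 2.48 CPM in CAST APP/PS1 male 6 (the others reached 0.323), 1.30 in CAST APP/PS1 female 3 (the others reached 0.477), 0.190 in CAST WT male 1 and 0.396 in WSB WT male 6. Scn11a, its neighbour, was highest at 1.55 CPM in the same CAST APP/PS1 male 6, at 1.03 in B6 APP/PS1 male 3 and at 0.247 in B6 APP/PS1 female 3.

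B6 APP/PS1 male 3 also had the highest Kcnj15 of its group, 0.217 CPM (the others reached 0.0507), and the highest Kcnk15, 1.11 CPM (the others reached 0.482). Kcnk15 was also highest in B6 WT female 3 at 0.964 CPM and lowest in WSB APP/PS1 male 3 at 0.225 CPM. PWK APP/PS1 male 6 had the highest Kcnj5 of its group, 3.04 CPM, and the lowest Kcnt1, 153 CPM. Kcnk5 was highest in WSB WT male 2 at 2.04 CPM.

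The difference of APP/PS1 from WT mice in Scn10a varied between strains (edgeR adjusted p 0.00635 in the test for this), which rests on CAST APP/PS1 male 6 and female 3.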

How the results depend on the processing

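For named genes, 167 differences were refitted under the alternatives, giving 2692 values: 2607 kept their direction and side of the threshold, 76 kept the direction and lost the call, 1 gained it and 8 reversed. Of the 245 counts of called genes 230 stayed within 1.5 times the count given in the report, and all 70 summed levels stayed within the spread between mice. Run as a covariate could not be fitted for strain differences with B6. With a replicate block, pairing mice of the same number across groups, 2 of 167 differences lost the call and no count of called genes changed by more than 1, and same-number mice did not resemble each other (mean r 0.008 over 45 pairs).

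All 8 reversals came from repeating a strain difference in APP/PS1 mice, chosen after the data were seen. The log2 differences there of CAST from WSB were -0.049 (Hcn2), -0.106 (Kcnk15) and 0.973 (Scn10a), those of CAST from B6 -0.002 (Kcnc1) and 0.450 (Scn10a), those of CAST from PWK -0.063 (Kcnk13) and -0.049 (Kcnk15), and that of PWK from B6 0.097 (Kcnj4). The cause was not tested.

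With DESeq2, 3 genes were called for genotype in PWK and 2 for genotype by strain. With a fit on 1 strain, 1 was called in CAST and 3 in PWK. Without a filter on low counts, 1 was called averaged over strains. Chosen after the data were seen, leaving out the B6 WT male 5 and B6 APP/PS1 female 2 libraries gave 4 in PWK and 5 averaged over strains; leaving out CAST APP/PS1 male 6 and female 3 gave 1 in CAST and 0 by strain, and leaving out either gave 0 by strain. Leaving out 1 mouse at a time gave 0 to 6 averaged over strains and 1 to 2 in PWK. The cause was not tested.

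Scn10a in CAST lost the call in the fit on CAST and without both CAST mice, with log2 differences of 1.00 to 2.33 and adjusted p up to 0.251, while Kcnj15 in CAST kept its call in every alternative run. Among the genotype differences within strains, the widest 95% interval was that of Kcna10 in WSB, a gene under 1 CPM. It reached 1.82 to either side on the log2 scale, and the part of depth in this was not tested.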
